A study of Mus musculus with 18 samples.

Results

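A 3′ end joined to many start sites is a cleavage and polyadenylation position at which mRNA isoforms with 5 or more different 5′ ends stop. Such ends were found in the 2 deposited isoform tables of mouse myotubes by grouping nuclear isoforms by chromosome, strand and 3′ end position. Of 3841 nuclear 3′ ends of the polysome isoforms, 211 met this rule. They held 1854 of 7095 isoforms (26.1%) and 43.8% of a summed coverage of 1600529. Of 4274 ends of the decay isoforms, 114 met it, with 1121 of 6593 isoforms (17.0%) and 35.7% of a summed coverage of 3117987. Coverage is the authors' whole-number count per isoform, pooled over all libraries of an assay.

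The cells were primary myoblasts from the gastrocnemius of wild-type female mice. All had fused into myotubes during 24 h in 1 µM of the ERK inhibitor SCH772984, so every library shares this drug. For polysome profiling, cells were held for 5 min in 100 µg/ml cycloheximide. Lysates of 2 mice were spun through sucrose gradients of 10 to 50%. Each gave 3 libraries, of RNA free of ribosomes, of light polysomes with 2 to 5 and of heavy polysomes with 6 or more ribosomes. For the decay assay, myotubes of 3 mice received 7.5 µg/ml actinomycin D and were sampled after 0, 3, 6 and 12 h, for 12 libraries in all. All libraries of an assay were pooled in the files used here, so no value per mouse, fraction or time exists and no difference between conditions was tested. Isoforms at a shared 3′ end are not replicates of each other. Of 12 myotube markers, 10 had a reference window, and 9 were matched in each table (among them Myog, Des, Ckm, Myh3 and Cav3), with a summed coverage of 123423 and 205064. No marker of fibroblasts, leukocytes or adipocytes was matched, where 1 of 3, 2 of 2 and 2 of 2 had a window. Of the 2 endothelial markers 0 had a window, so these cells could not be looked for. The absence of fibroblast markers rests on 1 gene.

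An mRNA starts where RNA polymerase II initiates and receives a cap, and it ends where the nascent RNA is cleaved and polyadenylated, usually a short distance after an AAUAAA-like hexamer. Promoters often initiate at several nearby bases, and a gene can hold alternative promoters that feed the same terminal exon, as is known for Aldoa in muscle. A start listed inside a gene is the 5′ end of a sequenced molecule, and coverage alone does not tell initiation from other origins.

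The shared 3′ ends with the most starts are shown first, because the isoforms of an end have this last stretch in common while their start positions differ. Each line gives the last 30 bases of the deposited 3′ UTR, 5′ to 3′, written as DNA. Capitals mark an AATAAA or ATTAAA hexamer. Gene symbols come from sequence matches to RefSeq promoter windows, and positions are as deposited, in build GRCm39 per the submitters' processing notes.
Eef2, chromosome 10, plus strand, 81018329: attggagtAATAAActacagtggttgatcc
Pkm, chromosome 9, plus strand, 59586652: acctgaatgtcAATAAAcagcagctgaagc
Aldoa, chromosome 7, minus strand, 126394407: ccactgccAATAAAcaactatttaaggggg
Myh3, chromosome 11, plus strand, 66993110: ttccacatgcAATAAAgtttgccttgtttc
Ccnd3, chromosome 17, plus strand, 47910611: atcatgctgccttAATAAAgatttcggaat
Cdh15, chromosome 8, plus strand, 123594133: gatttcaATTAAAagcatactatttggtgg
Actn2, chromosome 13, minus strand, 12284315: ataaaggctgaagtataggctgttacctgg
The hexamer ended 11 to 17 bases before the 3′ end in the first 6 of these genes. For Actn2 the hexamer was within the last 40 bases but not whole within the 30 shown. An AATAAA or ATTAAA was present in the last 40 bases at 176 of 206 such ends of the polysome table (85.4%) and at 104 of 113 of the decay table (92.0%). Among ends with 2 to 4 starts the shares were 80.8% and 82.4%. All isoforms with a 3′ UTR sequence had the same sequence at 206 of 211 and 113 of 114 of the ends. Grouping by 3′ end position makes this likely beforehand. What lies between the start and the 3′ UTR was not read.

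The starts joined to these ends did not look alike. For Eef2, Pkm, Aldoa and Myh3, the first 20 bases of the 3 most covered starts at least 100 nt apart are given, with the first 5 bases in capitals. The Eef2 and Pkm starts were ranked in the polysome table, and the Aldoa and Myh3 starts in the decay table. A terminal oligopyrimidine (TOP) start, which many mRNAs of the translation machinery carry, is a C followed by 4 pyrimidines there.
Eef2 leading start: CTCTTccgccgcagccgccg
Eef2 start 3949 nt downstream: ATTGCtggcgccggtgagct
Eef2 start 2933 nt downstream: GACAGccaagctgatcgaga
Pkm leading start: CCCGCacagcagcgactcgt
Pkm start 12400 nt downstream: GCTTAcatggagaagtgtga
Pkm start 15115 nt downstream: GCAACcgagctgggaagcct
Aldoa leading start: AGCAGaacgaggttctggtg
Aldoa start 905 nt upstream: ACTCTctgctgaccgggctc
Aldoa start 1224 nt upstream: CTTACagatcctggacctga
Myh3 leading start: ATGCTtctctctgtcacagt
Myh3 start 20949 nt downstream: TGATAggaagattgcagaga
Myh3 start 20271 nt downstream: GTAAGcctttccgaactgtc
Of these 12 starts the leading Eef2 start has the TOP form. It held 72.8% of the Eef2 coverage in the polysome table, and the internal Eef2 starts shown held 2.90% and 2.23%. The Aldoa starts shown are all annotated, and the alternative Pkm, Eef2 and Myh3 starts are all new in the deposited annotation. Among the ends with the highest leading share, the ribosomal genes Rack1 and Rps10 had TOP leading starts, and the transcription factor genes Hes6 and Atf5 did not.
Rack1 leading start: CTTTTtctccacagggtcgt
Rps10 leading start: CTTTCcagcctccgcctcgg
Hes6 leading start: AGACTccggagagctagtgg
Atf5 leading start: ATTTTcaaccctctcagcac

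Over all such ends, A was the most common first base of leading starts and less common at the other starts. Of 201 leading polysome starts with a 5′ UTR sequence, 61.2% began with A (Wilson 95% interval 54.3 to 67.7%), against 44.5% of 1327 other starts (41.8 to 47.1%). Among decay starts A was first at 64.0% of 111 leading (54.7 to 72.3%) and 40.8% of 779 other ones (37.4 to 44.3%). These intervals cover counting error only, and no test was run. T was first at 1.49% and 0.901% of leading and at 8.06% and 13.0% of other starts. Other starts that were annotated resembled the leading ones, with A first in 63.8% (polysome) and 70.0% (decay), whereas A was first in 34.8% and 33.3% of new other starts. The split followed distance as well. Within 100 nt of the leading start 66.8% and 73.2% of other starts began with A, and beyond 1000 nt 30.1% and 32.3% did. TOP starts made up 10.9% and 12.6% of leading starts and 2.86% and 1.54% of other starts. Where ends had 2 to 4 starts, A was first in 64.8% and 65.0% of leading starts and in 58.1% and 61.4% of other starts. Leading starts were chosen by coverage, and the part of coverage in these shares was not tested.

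The number of starts per end had a median of 6 in the polysome table (5 to 39) and of 7 in the decay table (5 to 31), and was the value that chose the ends. At least 10 starts were listed at 50 polysome and 42 decay ends, and at least 20 at 12 and 7. Just inside the rule, the 69 polysome ends with exactly 5 starts had a median coverage of 671, and just outside it the 113 ends with exactly 4 starts had 524. The decay medians were 1916 for the 26 ends with 5 starts and 1149 for the 85 ends with 4. The rule thus cuts through a continuous range. Grouping by shared start positions linked the ends into 203 and 109 separate sets, since 51 of 1803 polysome and 36 of 1085 decay start positions were joined to more than 1 of these ends.

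Ends with many starts were also deeply covered. Median coverage per end was 1583 (95 to 66026) in the polysome and 5910 (186 to 57680) in the decay table, against 174 and 379.5 for ends with 2 to 4 starts. Of polysome ends with a coverage of 10000 or more, 12 of 13 had 5 or more starts, and of those between 100 and 300, 33 of 766 had. The decay counts were 35 of 42 and 4 of 983. Deep ends were not uniform. Among ends with a coverage between 1000 and 3000, 58 of 236 polysome ends had 5 or more starts and 66 had 1, and 20 and 210 of 408 decay ends did. The number of starts and the coverage are counted from the same isoforms. Isoforms were listed from a coverage of 11 in the polysome and 21 in the decay table, so a shallow end has less room for minor starts.

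**Figure D1:**
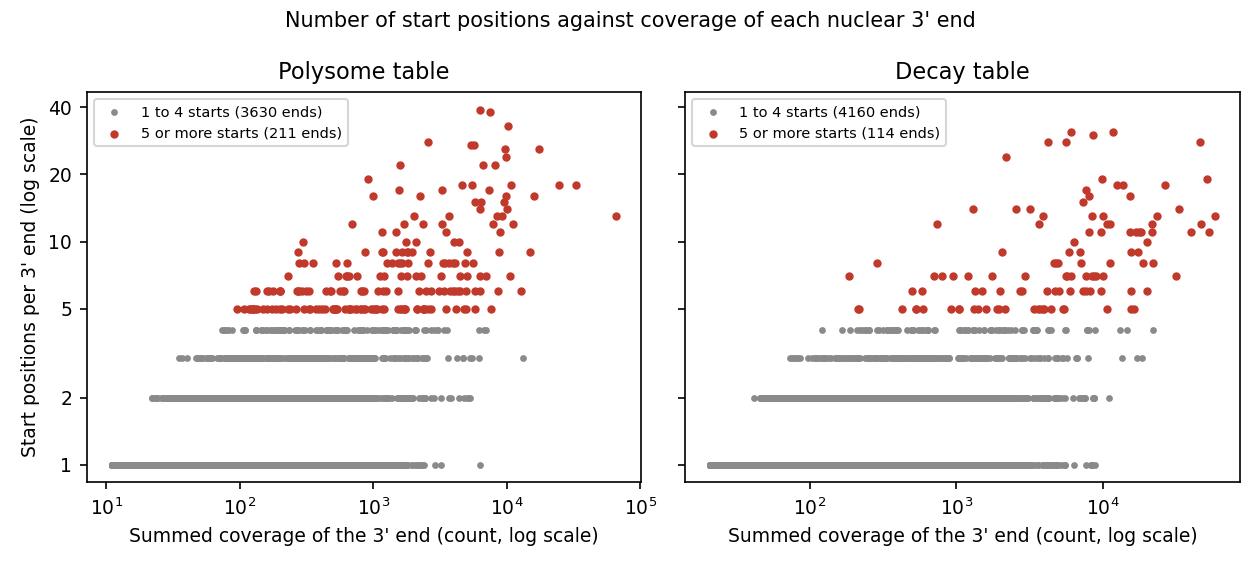
Each point is 1 nuclear 3′ end, with its summed coverage on the x axis and its number of start positions on the y axis (both log scales), in the polysome (left) and decay table (right). Red points are the 211 and 114 ends with 5 or more starts, and grey points at high coverage show deep ends with 1 start.

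Eef2, which encodes the elongation factor that moves the ribosome along the mRNA, had the most starts in the polysome table (39, coverage 6309). It had 31 in the decay table (coverage 11654). Next with a symbol in the polysome table came Pkm, the last enzyme of glycolysis, with 33 starts, Ccnd3, which encodes cyclin D3, with 28, and Cdh15, the myoblast adhesion protein M-cadherin, with 27. In the decay table Myh3, the embryonic myosin heavy chain, equalled Eef2 with 31 starts, followed by Actn2, the Z-disc protein α-actinin-2, the glycolytic enzyme gene Aldoa and Atp2a1, the calcium pump of the sarcoplasmic reticulum, with 28 each. An end without a symbol, on the minus strand of chromosome 19 at 4911251, had 38 starts in the polysome and 30 in the decay table. The largest summed coverage was at the end of Des, which encodes the muscle intermediate filament protein desmin, with 66026 and 57680 over 13 starts in each table. Acta1, the skeletal α-actin of thin filaments, followed in the polysome table with 32841 over 18 starts.

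Starts at a shared end were spread over kilobases of the genome. The distance between the outermost starts had a median of 5429 nt (122 to 1970705) in the polysome and 7594 nt (116 to 1970691) in the decay table. These medians were 76 and 110.5 nt at ends with 2 to 4 starts. A span grows with the number of starts, which chose the ends, so this contrast is not read as a trait of them. Polysome ends with exactly 4, 5 and 6 starts had median spans of 827, 1999 and 6366 nt. The decay medians were 1439, 2129.5 and 6295 nt. The gap between neighbouring starts had a median of 116 nt in the polysome and 224 nt in the decay table. Of 1643 non-leading polysome starts, 12.4% lay over 20 and up to 100 nt from the leading start, 28.7% up to 1000 nt, 37.9% up to 10000 nt and 18.9% up to 100000 nt. For the 1007 non-leading decay starts the shares in these classes were 5.86%, 22.5%, 45.5% and 24.4%. Distances are genomic and include introns.

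Most non-leading starts lay downstream of the leading start, inside the transcribed gene. This held for 1257 of 1643 (76.5%) in the polysome and 837 of 1007 (83.1%) in the decay table. It held for 52.0% and 53.4% at ends with 2 to 4 starts. The leading start was the most upstream of its group at 60 of 211 and 42 of 114 ends, and the most downstream at 10 and 1. Downstream starts were found along the whole way to the 3′ end. Dividing the distance from leading start to 3′ end into 4 equal stretches, from the start on, the polysome table had 34.8%, 15.9%, 22.5% and 26.8% of the downstream starts in them, against 24.4%, 18.04%, 27.4% and 30.2% in the decay table. The shortest distance from a start to its 3′ end was 303 nt in each table.

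**Figure D2:**
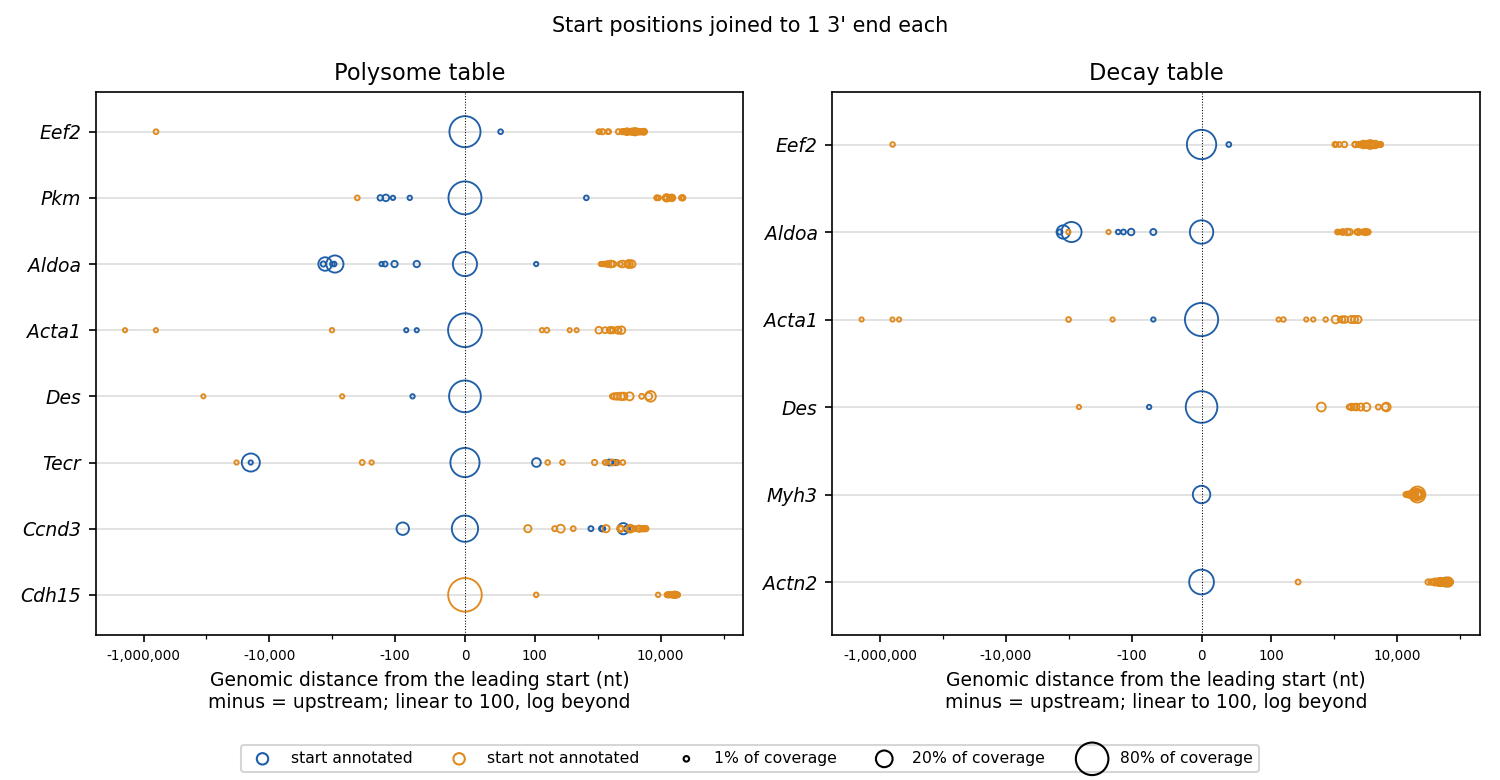
Each row is 1 shared 3′ end named by its gene and each circle 1 start position, placed by its genomic distance in nt from the leading start at 0 (minus is upstream, linear to 100 nt and log beyond) with an area that grows with its share of coverage, for the polysome (left) and decay table (right). Blue circles are annotated starts, orange ones are not; most small circles are orange and lie 1000 nt or more downstream, and those of Myh3 and Actn2 lie beyond 10000 nt except 1 of Actn2.

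The named genes showed different layouts. The most abundant Pkm start, at 8317 of 10136 counts (82.1%, Wilson 95% interval 81.3 to 82.8%), had 4 further annotated starts within 172 nt upstream and a new start at 399 nt upstream. The other 27 Pkm starts in the polysome table lay downstream, up to 22467 nt away, and the most used of these, 12400 nt downstream, held 301 counts. Pkm thus had a leading promoter and a long run of minor internal starts. For Myh3 in the decay table the leading start held 1342 of 6060 counts (22.1%, interval 21.1 to 23.2%), and the next, 20949 nt downstream, held 1100 (18.2%). All 30 non-leading Myh3 starts lay between 13792 and 23344 nt downstream, and none was annotated. Actn2 had a similar layout, with 2539 of 5556 counts (45.7%) at the leading start and 27 starts downstream, of which 26 lay 31062 to 69874 nt away. For both genes, less decay coverage joined to the 3′ end was listed at the leading start than at the others together. The same held at other decay ends, among them those of Aldoa and Ppa1. For Actn2 this did not hold in the polysome table, where the leading start held 82.8% of 657 counts.

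Cdh15 combined a leading start that is itself new, 416 nt downstream of the nearest annotated one, with 26 minor starts. The leading start held 4887 of 5722 counts (85.4%, interval 84.5 to 86.3%) in the polysome table and 90.3% in the decay table. Of the 26 others, 25 lay 9116 to 18675 nt downstream, and none held more than 104 counts. Ccnd3 had a flatter profile, with 51.6% at the leading start, 10.6% at an annotated start 89 nt upstream and 8.34% at an annotated start 2548 nt downstream. Tecr, an enzyme of very-long-chain fatty acid synthesis, used 2 distant annotated promoters. Its leading start held 6885 of 10762 counts (64.0%), and a start 19679 nt further upstream held 2559 (23.8%). In the decay table the leading Tecr start held 81.7% of 26609 counts.

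Aldoa had 3 annotated start regions in the polysome table, with 43.4% at the leading start, 21.3% at 905 nt upstream and 12.7% at 1296 nt upstream. The leading start and that at 905 nt held 40.8% and 29.7% in the decay table. Igf2, a fetal growth factor gene, was the 1 decay end whose leading start was the most downstream of its group. That start was new and lay 478 nt before the 3′ end, inside the deposited 3′ UTR of 1875 nt. It held 267 of 1306 counts (20.4%, interval 18.3 to 22.7%), while the annotated start 6232 nt upstream held 224. No Igf2 start other than that upstream one had a 5′ UTR sequence. Tpm2, which encodes β-tropomyosin, had 2 such 3′ ends, at 43514712 and 43515683 on the minus strand of chromosome 4, and these shared the leading start. It held 87.6% and 88.5% of their polysome coverage and 90.7% and 88.4% of their decay coverage.

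A few ends were joined to starts very far from the leading one. A start more than 100000 nt from the leading one was found at 12 polysome and 9 decay ends, for 31 of 1643 and 15 of 1007 non-leading starts. Of these, 18 and 10 lay upstream of the leading start, and 13 and 5 between it and the 3′ end. These polysome starts held 0.767% of the non-leading coverage. At Acta1 a start 1968321 nt upstream held 21 polysome and 34 decay counts, and 1 at 635142 nt held 26 and 29. At Eef2 a start 632641 nt upstream held 28 polysome counts and was also listed in the decay table. An end without a symbol on the plus strand of chromosome 9 at 50667933 had a span of 1852532 nt in the decay table and of 4456 nt in the polysome table. The origin of these joins was not tested.

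Coverage was concentrated on the leading start. Its share had a median of 74.7% (16.8 to 98.9%) in the polysome and 85.6% (14.5 to 99.3%) in the decay table. The leading start held at least 90% at 49 of 211 and 43 of 114 ends, and less than 50% at 54 and 19. Non-leading isoforms had a median coverage of 26 and 51. The inverse of the summed squared shares, which counts how many equally used starts would give the same concentration, had a median of 1.73 and 1.35. Against a median of 6 and 7 listed starts, most starts thus added little coverage. The median leading share was 76.8% and 79.9% at ends with 2 to 4 starts. Wilson intervals cover counting error only, since sequence counts are not known to be independent molecules and no value per mouse is given.

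A few groups stayed within a promoter's width. The narrowest decay group was that of Ppa1, an inorganic pyrophosphatase gene, with 5 starts over 116 nt and 75 of 217 counts (34.6%) at the leading start. Eif5a, which encodes a translation factor, had 5 annotated starts over 221 nt, of which the leading one held 78.9% and a start 61 nt downstream 18.1% of 4408 counts. All of its 5′ UTRs had the same ending, so these isoforms differed in UTR length before 1 start codon. Their half-lives at a coverage of at least 30 were 12.8, 14.1, 21.97 and 19.2, with 12.8 at the leading start. In the polysome table the 5 Fam110a starts lay within 122 nt and had TE values of 0.000618 to 0.000800 for the 3 used.

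The shares at single ends covered a wide range. Rack1, a component of the small ribosomal subunit, had 15403 of 15530 decay counts at its leading start (99.2%, Wilson interval 99.0 to 99.3%) and Rps10 10509 of 10696 (98.3%). In the polysome table Hes6, a regulator of myogenic and neural differentiation, had 7551 of 7638 (98.9%) and Atf5, a stress-responsive transcription factor gene, had 6175 of 6302 (97.98%). These ends have 4 or 5 minor starts that together hold few counts. At the other extreme was a group without a symbol on the minus strand of chromosome 7 ending at 142129269. The deposited class of its leading isoform was intergenic, and whether a known gene lies there was not checked. The group had 9 starts in the polysome table, of which 8 held 1178 to 2531 of 15038 counts each. Its leading start held 16.8% (16.2 to 17.4%) in the polysome table and, at a position 118 nt away, 33.0% (32.4 to 33.7%) in the decay table. An end without a symbol on the plus strand of chromosome 11 at 67199457 had 318 of 2188 decay counts at the leading start (14.5%, 13.1 to 16.1%) and 23 new starts 19909 to 29682 nt downstream. Cdc34, which encodes a ubiquitin-conjugating enzyme, had the lowest leading share of a named gene above a coverage of 500 in the polysome table, with 183 of 692 counts (26.4%).

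Annotation followed dominance. In the deposited classes an annotated transcript has both ends within 100 nt of annotated ends, and "New TSS" and "New PAS" mark a new start or a new polyadenylation site. Annotated transcripts made up 30.5% of the polysome isoforms at these ends and 20.9% of the decay isoforms, but 63.7% and 64.5% of the coverage. New TSS isoforms made up 56.4% and 63.8% of isoforms and 13.8% and 12.4% of coverage. Leading isoforms were annotated transcripts at 146 of 211 (69.2%) and 81 of 114 ends (71.1%), against 25.5% and 15.2% of the non-leading isoforms. At ends with 2 to 4 starts, 53.7% of non-leading isoforms were annotated in each table. The deposited detail called 58.3% and 68.4% of all isoforms at the ends 5′ truncated and 8.09% and 8.47% 5′ extended. Non-leading starts lay a median of 677 nt (polysome) and 2130 nt (decay) from the nearest annotated start, and leading starts 21 and 18 nt.

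**Figure D3:**
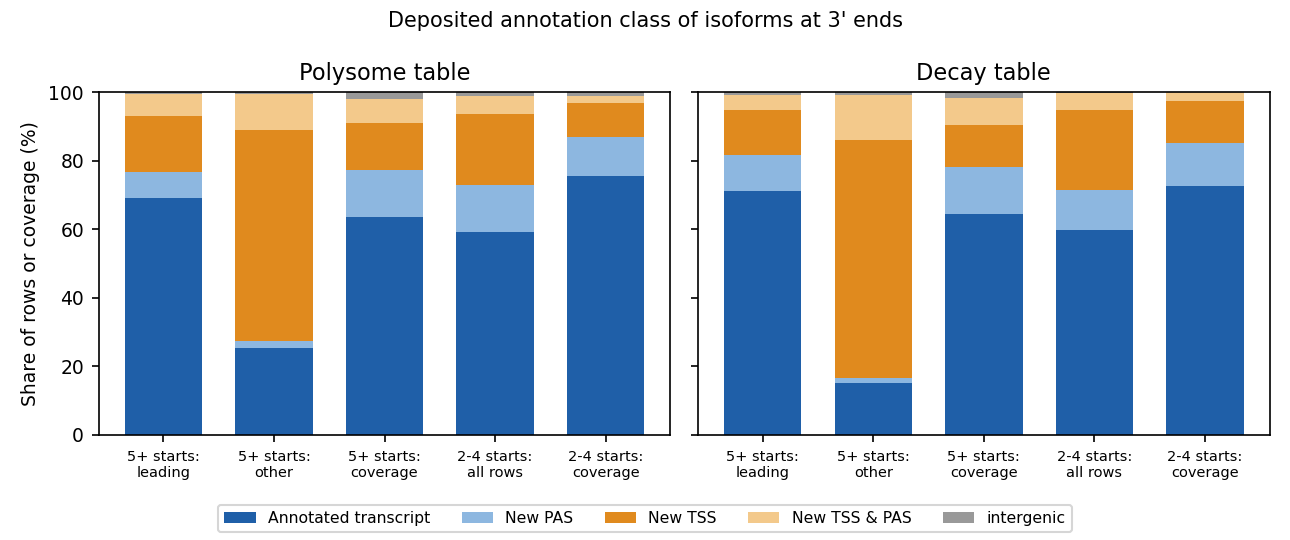
Stacked bars show the share in percent of isoforms or coverage in each deposited annotation class, for leading and other isoforms and for the coverage of ends with 5 or more starts, and for isoforms and coverage of ends with 2 to 4 starts. In the polysome table (left) 25.5% and in the decay table (right) 15.2% of the other isoforms are annotated transcripts, against 69.2% and 71.1% of the leading isoforms.

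Starts inside a gene can change which start codon comes first. The deposited 5′ UTRs of internal starts end at different start codons, which can be compared by the last 12 bases of the UTR. The 5′ UTR ended as that of the leading isoform in 426 of 1298 other polysome isoforms (32.8%) and in 168 of 774 decay isoforms (21.7%), against 65.8% and 61.3% at ends with 2 to 4 starts. A group held a median of 3 different endings in each table, and Eef2 had the most, with 20 in the polysome and 19 in the decay table. A 5′ UTR sequence was given for 95.3% and 97.4% of leading and 80.8% and 77.4% of other isoforms. The sequence before the predicted start codon held another ATG in 40.3% and 20.7% of leading and in 59.2% and 61.6% of other isoforms with a sequence. The median length of that sequence was 127 and 94 nt for leading and 144 and 123 nt for other isoforms. These 5′ UTRs are predictions, and which start codons were used was not measured.

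Translation efficiency (TE) was given by the authors as 1 value per isoform with no unit, and is compared only within the polysome table. Only isoforms with a coverage of at least 30 and a TE above 0 were used, which kept 808 of 1854. The 131 ends with at least 3 such isoforms had a median SD of log2 TE of 0.41 within an end. The highest TE was a median of 1.95 times the lowest, and the ratio was at least 2 at 62 of 131 ends. Between ends the SD of log2 TE was 0.71 and within ends it was 0.54, so 63.7% of the variance lay between ends. This share rests on pooled squares, to which a few extreme ends can add much. The largest SD within an end was 2.66, and the share without such ends was not calculated. At ends with 2 to 4 starts and at least 3 isoforms used (63 ends), the median SD was 0.34 and 59.4% of the variance lay between ends. A ratio of highest to lowest grows with the number of isoforms, so it is not set against that of the smaller groups. Isoforms at low coverage also carry counting error in TE, whose size is not given.

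The leading start had no common direction of TE against the median of the other starts of its end. How often it had the highest or the lowest TE was not counted. Its log2 TE minus the median of the other starts had a median of -0.050 over 176 ends, and it was lower at 99 of them. The most upstream start of an end had a lower TE than the most downstream start at 111 of 179 ends, with a median log2 difference of -0.23. At ends with 2 to 4 starts it was lower at 228 of 404 ends, with a median of -0.074. Starts upstream of the leading start had a lower TE than it in 107 of 176 cases (60.8%), and starts downstream in 194 of 425 (45.6%). TE was lower than at the leading start for 54.2% of 216 isoforms with the 5′ UTR ending of the leading isoform and for 47.1% of 378 with another, and this difference was not tested.

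The widest TE range was at an end without a symbol on the plus strand of chromosome 2 at 156604878. Its 4 used isoforms ranged from 1.95e-05 to 0.00122, or 62.8-fold. Pkm (8.15-fold) and Tecr (9.13-fold) had the widest TE ranges of the ends with a symbol and at least 4 isoforms used. At Pkm, TE was 0.000500 at the leading start, 0.000278 at the annotated start 140 nt upstream, 0.00100 at 12400 nt downstream and 0.00226 at 9315 nt downstream, where the coverage was 37. Starts 14084 nt or more downstream of the Pkm leading start had values between 0.000606 and 0.000738 at a coverage of at least 30. At Tecr the leading start had 0.00106 and the distant annotated promoter 0.00103, while a 5′ extended start 333 nt upstream of the leading one had 0.000234 and an annotated start 1537 nt downstream 0.00214. The 2 Tecr promoters thus had nearly equal TE, and the extremes were isoforms with 61 and 157 counts. At Acta1 the leading start had 0.000633. The new starts 130 and 155 nt downstream of it, with 5′ UTRs of 924 and 899 nt, had 0.000308 and 0.000316, and the 8 used starts from 1041 nt downstream on had 0.000539 to 0.000615. Des, in contrast, had all of its 11 used starts between 0.000301 and 0.000430. At Eef2 the TOP leading start had the highest TE of the 19 used, 0.000258, and the others ranged from 0.000138 to 0.000246.

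**Figure D4:**
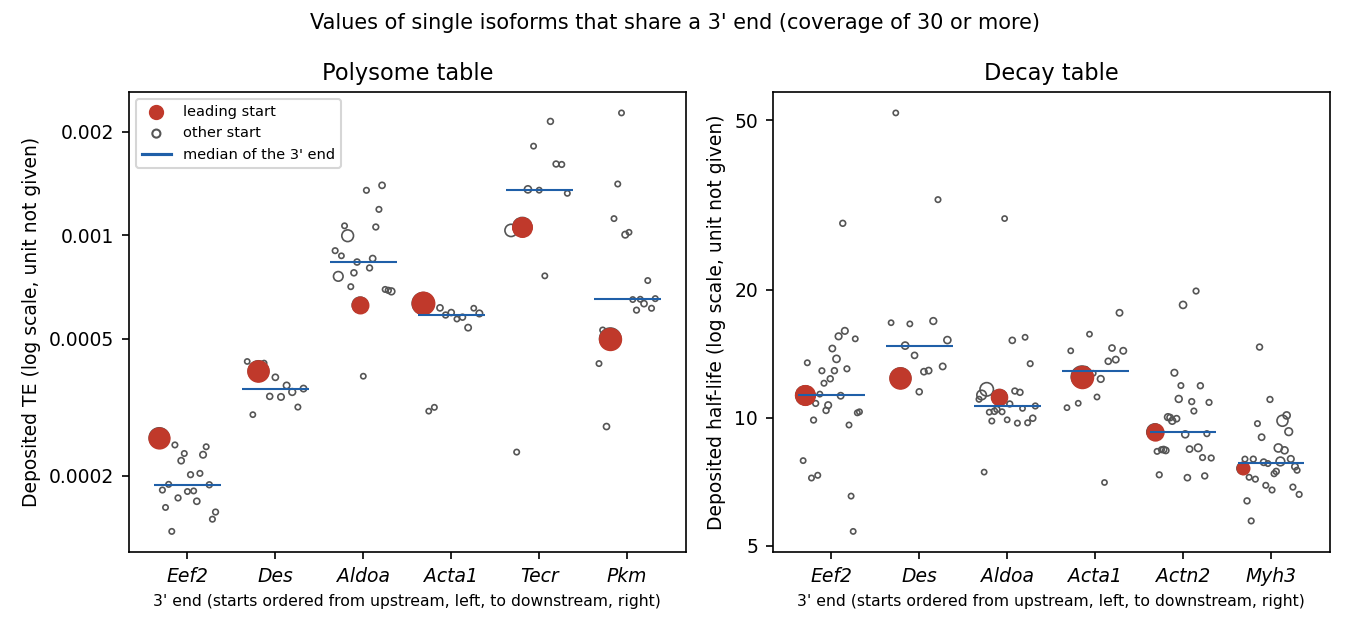
Each circle is 1 isoform with a coverage of at least 30, ordered within a gene from the most upstream start (left) to the most downstream (right), and larger circles hold a larger share of coverage. The left panel gives TE and the right panel half-life, both as deposited on log scales with no unit given; red marks the leading start and the blue line the median of the end, and Des spans 0.000301 to 0.000430 where Pkm spans 0.000278 to 0.00226.

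Half-life was likewise the authors' value per isoform, with no unit given. With the same minimum of 30, 874 of 1121 isoforms were used. The 111 ends with at least 3 of them had a median SD of log2 half-life of 0.44, and the highest value was a median of 2.34 times the lowest. The ratio was at least 2 at 74 of 111 ends. The SD between ends was 0.26 and that within ends 0.59, so 15.7% of the variance lay between ends. At ends with 2 to 4 starts (156 ends) 18.4% did. Both shares rest on pooled squares, to which a few extreme ends can add much. The largest SD within an end was 2.64, and 4.64 at ends with 2 to 4 starts. Shares without such ends were not calculated, so 15.7% is not set against the share for TE. The half-life of the leading start minus the median of the others had a median of 0.037 on the log2 scale over 114 ends, which turned to -0.072 at a coverage of at least 60. The most upstream start had the lower half-life at 44 of 114 ends, with a median log2 difference of 0.15, or of 0.060 at a coverage of at least 60. Starts upstream of the leading start had a lower half-life than it in 71 of 130 cases and starts downstream in 321 of 630, which is close to an even split for each. Within an end, half-life and coverage had a median Spearman's rho of 0.28 over 64 ends with at least 6 isoforms, and TE and coverage had a median of 0.047 over 32 ends. Coverage in the decay table sums every time after actinomycin D, and the part of this in that relation was not tested.

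Single values set the widest half-life ranges. At an end without a symbol on the minus strand of chromosome 2 at 26951688, 1 isoform with 66 counts had a half-life of 6666.09, and the other 11 ranged from 7.80 to 53.7. The leading isoform there, with 45636 counts, had 12.3. At the upstream Tpm2 end (43515683) half-lives ranged from 8.55 to 26.6, while at the other Tpm2 end a start 7455 nt downstream of the leading one, with 164 counts, had 119.3 and the leading start 11.8. Rpsa, a ribosomal protein gene, had 129.6 at a start with 32 counts and 12.9 at its leading start with 17576. Genes with many isoforms used differed in range. The 28 used Myh3 starts had half-lives of 5.72 to 14.6 with a median of 7.83, and the 27 of Actn2 had 7.22 to 19.8 with a median of 9.25. The 28 of Eef2 had 5.40 to 28.6 with a median of 11.3, and the 23 of Aldoa had 7.45 to 29.4 with a median of 10.7. The leading Myh3 start had 7.60 and the start 20949 nt downstream had 9.83, where the SD of log2 half-life within this end was 0.27. Only the first of these 2 starts is listed as annotated.

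Most of these 3′ ends were listed in both assays. Of the decay ends with 5 or more starts, 108 of 114 were listed in the polysome table with any number of starts, and 188 of the 211 polysome ends in the decay table. The share over all nuclear 3′ ends is not given here. Ends with many starts are also deeper than the rest, so this overlap is not read as a trait of them. A total of 78 ends met the rule in both tables, which is 37.0% of the polysome and 68.4% of the decay ends. The leading start was at the identical position at 60 of 78 and within 20 nt at 69. Over these 78 ends Spearman's rho of the leading share between tables was 0.830 and that of the number of starts 0.499. Of 941 polysome and 800 decay starts at these ends, 244 were at the same position, and they held 73.0% and 76.7% of the coverage. A start within 20 nt in the other table was found for 499 of the 941 and 490 of the 800. For the 178 shared starts that led in neither table, the share of coverage had a rho of 0.875 between tables. This rho pools starts of different ends, so differences between ends enter it. Agreement among the minor starts of a single end was not calculated. The tables come from different libraries of the same kind of cells and from ends called by the same authors.

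Leading shares differed between the assays at a part of the ends. At 44 of the 60 ends with the same leading start the share differed by less than 10 percentage points. Over these 60 ends the polysome share minus the decay share ranged from -42.4 to 43.1 percentage points. At Actn2 the leading start held 82.8% of 657 counts in the polysome table (Wilson interval 79.7 to 85.5%), with 5 starts listed, and 45.7% of 5556 in the decay table (44.4 to 47.0%), with 28. At the Cdc34 end at 79524230 it held 26.4% of 692 counts (23.3 to 29.9%) and 68.8% of 584 (65.0 to 72.5%). At Rplp0, a ribosomal protein gene, the shares were 51.2% (47.3 to 55.2%) and 85.2% (83.4 to 86.8%). These intervals do not overlap, but they leave out the spread between mice. Depth and the lowest listed coverage differed between the tables too, and their part in these differences was not tested.

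**Figure D5:**
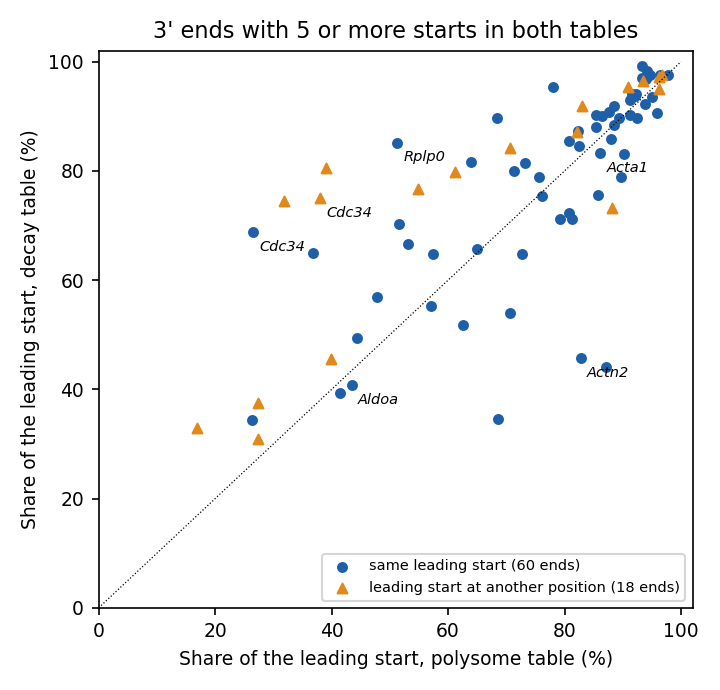
Each point is 1 of the 78 3′ ends with 5 or more starts in both tables, with the leading start's share of coverage in percent in the polysome (x) and decay table (y) and a dotted line at equal shares. Blue points (60) have the same leading start; Cdc34 and Rplp0 lie above the line and Actn2 lies below it.

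TE and half-life could be set side by side for single starts. At 171 starts with both values the 2 measures had a Spearman's rho of 0.165. Taken as deviations from the mean of their own end, the rho was -0.12 over 105 starts of 27 ends. Starts at 1 end share the 3′ end, the gene and the libraries, so these values describe the tables only.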

How the data were processed

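TIF-seq2 libraries, which read both ends of 1 mRNA, were made from 6 polysome fractions and 12 decay samples. STAR 2.5.3a, UMI-tools 0.5.4, cutadapt 1.16, bcl2fastq 2.20.0 and build GRCm39 are named in the submitters' processing notes. The sources used here do not give how ends were clustered or the formulas of TE and half-life. For each assay the authors pooled all libraries into a table with a raw coverage count per isoform. It also holds a deposited score, TE or half-life, for which the file headers name no unit. The number of columns of single libraries is 0, so depth per library is unknown and no test across samples was possible.

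Nuclear isoforms were grouped by chromosome, strand and 3′ end, and ends with at least 5 start positions were kept. The start with the highest count is the leading start. TE and half-life were used at a count of at least 30 and a value above 0. A symbol was given where 25 bases of the deposited 5′ UTR of an annotated or leading isoform matched the RefSeq promoter window (GRCm38.p6) of 1 gene on the same chromosome and strand. This named 125 of 211 and 67 of 114 ends, and 7 ambiguous matches were dropped. Reference coordinates were not used.

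Ends named in the text were, per table, the 5 with most starts, the 5 with highest coverage, the 3 widest and 3 narrowest spans, the 3 highest and 3 lowest leading shares at a coverage of at least 500, and the 3 widest TE or half-life ranges. Rplp0 and Atp2a1 fall outside these lists and were chosen after their values were seen. The ends, lists and comparisons were chosen with earlier results of these data known. Intervals are Wilson 95% intervals. Scripts were tested on simulated data and run in Python 3.11.15 with pandas 2.3.3, numpy 2.4.6, scipy 1.17.1 and matplotlib 3.10.9. Alternatives changed the count minimum (30 or 60), the smallest share, the joining of starts within 20 nt or of ends within 10 nt, and the number of starts.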

Additional observations from a re-analysis of the deposited data

Results flagged for a closer look

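Mitochondrial isoforms were outside the rule. A mitochondrial 3′ end of the decay table, on the plus strand at 6941, was joined to 17 start positions with a summed coverage of 1949. No mitochondrial 3′ end of the polysome table had more than 4 starts. No control library for this signal was analysed here.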

How the results depend on the processing

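The number of polysome ends that met the rule fell to 68 when isoforms needed a coverage of at least 30 and rose to 324 with at least 4 starts. Of the decay ends, 56 met it when isoforms had to hold at least 1% of the coverage of their end, and 199 with at least 4 starts. At a coverage of at least 30, the polysome shares were 25% for annotated transcripts, 59.1% for New TSS and 1.45% for intergenic isoforms. The median decay span was 4823 nt with at least 4 starts. At a coverage of at least 60, the median log2 half-life of leading over other starts turned to -0.072, and that of the most upstream over the most downstream start was 0.060. The cause was not tested, apart from fewer isoforms entering under each minimum. The other 39 values under an alternative kept their sign and stayed near the value reported: within 1.5 times for counts, spreads and spans, within its Wilson interval for class shares, and within 0.05 for log2 medians. The TE differences kept their sign under every coverage minimum tried (none, 30 and 60). No paired analysis was possible because the tables pool all libraries and no result comes from a test between groups, and for the same reason no replicate could be left out. Depth per library is unknown, and isoforms under a count of 11 (polysome) or 21 (decay) are not listed, which limits the minor starts that can be seen. Starts were not placed in exons or introns.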
